A study of Mus musculus with 27 samples.

Results

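The CXC chemokines Cxcl1, Cxcl2, Cxcl3, Cxcl9, Cxcl10, Cxcl12, Cxcl14 and Cxcl16 were taken by gene symbol from the count and TPM tables, and make up 8 of the 55487 genes listed. All 8 are described in all 9 groups of libraries. The series used hepatocytes, microglia and macrophages grown from bone marrow (BMDM), all primary mouse cells, with 3 libraries in every group. Cells received the ethanol vehicle, the plant sterol 24(S)-saringosterol at 10 µM, or 1 µM of a synthetic compound, always for 24 h without serum. The labels write the synthetic compound as GW3596, GW3964 or GW3965. It is named GW here; the compound known as GW3965 activates LXR, the liver X receptors. During treatment the medium of microglia and BMDM held M-CSF, albumin and a mix of insulin, transferrin and selenite, and hepatocytes had another medium, so cell type and medium cannot be told apart. Microglia had been shaken off mixed glia, BMDM grown out of bone marrow with M-CSF, and hepatocytes seeded on collagen. Genotype, strain and age are not given in the labels used here. Whether the replicates were separate animals or cultures is not stated, so the p-values measure the spread between these libraries, which may be technical.

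Chemokines are small secreted proteins that guide leukocytes along concentration gradients, and those of the CXC class have 1 residue between their first pair of cysteines. Cxcl1, Cxcl2 and Cxcl3 attract neutrophils through the receptor Cxcr2 and are classical targets of the transcription factor NF-kappaB. Cxcl9 and Cxcl10 attract T and NK cells through Cxcr3 and are induced by interferons. Cxcl12, the ligand of Cxcr4, and Cxcl14 are mostly made constitutively, and Cxcl16, the ligand of Cxcr6, is made as a membrane protein that also takes up oxidised lipoprotein. In macrophages, ligand-bound LXR is known both to switch on genes of cholesterol export and to hold back inflammatory genes.

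Upstream sequence was read so that members with the same letters near their start could be set beside the values below. RefSeq (GRCm38.p6) held an upstream stretch for 7 of the 8 members, all but Cxcl16, and bases -250 to -31 from the transcript start were searched on both strands. The letters searched were GGANNTNCC (kappaB), GAAANNGAA (ISRE, the interferon-stimulated response element) and TTCNNNGAA (GAS, the interferon-gamma activated sequence). The kappaB letters occurred in 5 of the 7 members and in 10.5% of 32851 RefSeq stretches of the same length. The ISRE letters occurred in 3 members against 6.29% of all stretches, and the GAS letters in 1 against 6.27%. The kappaB and ISRE letters had been shortened after longer forms were searched, under which Cxcl9 held no match. Cxcl1, Cxcl2 and Cxcl3 lie near each other on chromosome 5 and share the letters GGAATTTCC. The counts of members are therefore a description and no test against the share of all stretches. The 5 stretches with the kappaB letters are shown, 5′ to 3′ towards the gene, with matches to any of the motifs in capitals.
Cxcl1, chr5:90890995-90891214, plus strand: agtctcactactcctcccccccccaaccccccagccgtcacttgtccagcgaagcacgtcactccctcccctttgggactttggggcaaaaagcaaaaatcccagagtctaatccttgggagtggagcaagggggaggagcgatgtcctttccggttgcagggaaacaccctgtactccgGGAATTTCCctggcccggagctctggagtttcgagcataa
Cxcl2, chr5:90903649-90903868, plus strand: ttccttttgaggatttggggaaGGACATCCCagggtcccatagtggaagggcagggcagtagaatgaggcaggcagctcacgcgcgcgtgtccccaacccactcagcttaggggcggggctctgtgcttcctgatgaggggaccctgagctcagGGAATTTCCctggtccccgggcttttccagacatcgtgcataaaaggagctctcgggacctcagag
Cxcl3, chr5:90785851-90786070, plus strand: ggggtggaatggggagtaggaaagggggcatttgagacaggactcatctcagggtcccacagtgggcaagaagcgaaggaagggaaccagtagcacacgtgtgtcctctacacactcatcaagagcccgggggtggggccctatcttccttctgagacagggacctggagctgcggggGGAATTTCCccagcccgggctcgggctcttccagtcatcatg
Cxcl9, chr5:92328110-92328329, minus strand: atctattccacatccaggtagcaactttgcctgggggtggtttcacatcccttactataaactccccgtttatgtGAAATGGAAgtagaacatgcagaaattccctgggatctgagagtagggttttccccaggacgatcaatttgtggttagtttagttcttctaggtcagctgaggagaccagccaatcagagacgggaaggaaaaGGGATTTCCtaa
Cxcl10, chr5:92348920-92349139, minus strand: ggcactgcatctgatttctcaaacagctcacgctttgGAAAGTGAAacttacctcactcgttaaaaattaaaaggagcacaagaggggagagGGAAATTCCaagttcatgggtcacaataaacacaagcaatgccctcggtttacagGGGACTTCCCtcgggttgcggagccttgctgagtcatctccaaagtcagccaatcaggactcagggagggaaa
Cxcl1, Cxcl2 and Cxcl3 shared the letters GGAATTTCC, which matched the kappaB motif on both strands, at -70 to -62, -96 to -88 and -72 to -64. Cxcl2 held a further match, GGACATCCC, at -228 to -220. Cxcl10 carried the kappaB letters GGAAATTCC at -158 to -150 and a pair of overlapping matches from -103 to -94, and an ISRE match, GAAAGTGAA, at -213 to -205. Cxcl9 carried a kappaB match on the strand opposite to the printed one at -42 to -34 and an ISRE match, GAAATGGAA, at -175 to -167. In Cxcl14 an ISRE match, GAAACAGAA, stood at -172 to -164 and a GAS match, TTCTGAGAA, at -191 to -183. None of the motifs matched in the stretch of Cxcl12. A match describes letters and is neither a binding site nor a cause of the values that follow.

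**Figure D1:**
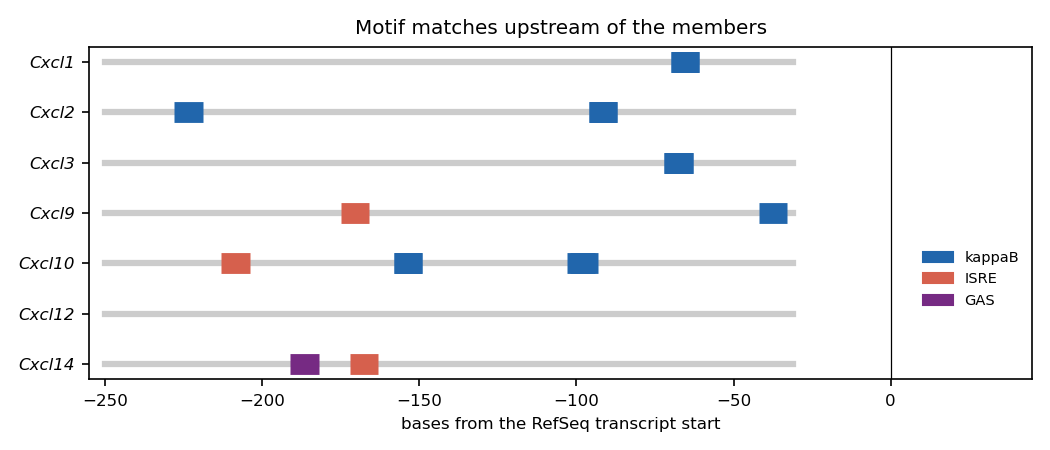
Motif matches by distance from the RefSeq transcript start (bases, x axis) for the 7 members with an upstream stretch. Grey bars are the stretches searched and coloured blocks the matches; Cxcl1, Cxcl2 and Cxcl3 each carry a kappaB block between -96 and -62, and Cxcl9 and Cxcl10 carry kappaB and ISRE blocks.

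The genes lie in 4 places on GRCm38. Chromosome 5 holds Cxcl3 (ENSMUSG00000029379, 90786103 to 90789600, plus strand), Cxcl1 (ENSMUSG00000029380, 90891241 to 90893115, plus strand) and Cxcl2 (ENSMUSG00000058427, 90903871 to 90905938, plus strand). The same chromosome holds Cxcl9 (ENSMUSG00000029417, 92321347 to 92328079, minus strand) and Cxcl10 (ENSMUSG00000034855, 92346638 to 92348889, minus strand). Cxcl12 (ENSMUSG00000061353) lies on chromosome 6 at 117168535 to 117181367 on the plus strand. Cxcl14 (ENSMUSG00000021508) lies on chromosome 13 at 56288643 to 56296551 and Cxcl16 (ENSMUSG00000018920) on chromosome 11 at 70453983 to 70459984, both on the minus strand. GENCODE M21 gave the same span for all 8. Cxcl10 shares 133 of its 2252 exonic bases with Art3 on the other strand, and Cxcl16 shares 552 of 3021 with Zmynd15. Whether reads were counted by strand is not given in the sources used here, so reads in the shared bases cannot be told apart. Art3 itself reached at most 0.396 CPM and Zmynd15 at most 8.93 CPM.

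Libraries held 30295862 to 41040268 counts, and 3 counts, the upper limit that a count of 0 allows, correspond to 0.0731 to 0.099 CPM (counts scaled to library size). This limit covers counting error only. The 8 macrophage markers summed to 34300 to 39000 CPM in microglia, 20700 to 28500 CPM in BMDM and 331 to 378 CPM in hepatocytes. The 8 hepatocyte markers summed to 9840 to 10300 CPM in hepatocytes and to at most 1.58 CPM in the other cells. In hepatocytes the Kupffer cell markers summed to 1.82 to 4.55 CPM, the endothelial markers to 1.75 to 4.58 CPM and the T and NK cell markers to at most 0.226 CPM. Among BMDM with saringosterol, replicate 3 differed from the mean of its 2 companions by 1.53 times or more in 6 of the 7 members tested in BMDM, and the values that rest on it are given with and without it.

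Among the 8 members, vehicle-treated microglia and BMDM had the same leading transcripts in the same order, and hepatocytes had others. Other CXC chemokines were not ranked, among them Pf4, at 177 ± 8.64 CPM in vehicle microglia and 47.3 ± 4.5 CPM in vehicle BMDM. Levels of different genes are compared here as TPM, the length-scaled values the authors deposited, with SD and n = 3. Microglia held most of Cxcl16 (181 ± 9.77 TPM) and Cxcl14 (136 ± 4.38 TPM), followed by Cxcl2 (22.2 ± 3.02 TPM). Cxcl3 (6.2 ± 0.424 TPM) and Cxcl10 (5.88 ± 0.714 TPM) overlapped in their libraries, and Cxcl1 stood lower at 3.52 ± 0.713 TPM. In BMDM the order was again Cxcl16 (107 ± 9.76 TPM), Cxcl14 (64.1 ± 1.82 TPM) and Cxcl2 (9.43 ± 2.54 TPM), and the range of Cxcl2 overlapped that of Cxcl10 (8.63 ± 2.43 TPM). In hepatocytes Cxcl10 came first (215 ± 7.59 TPM), then Cxcl16 (159 ± 9.91 TPM), Cxcl1 (60.8 ± 3.54 TPM), Cxcl9 (16.2 ± 1.13 TPM) and Cxcl2 (4.33 ± 0.762 TPM), with no overlap between neighbours. The summed TPM of the 8 genes was 339 to 365 in vehicle microglia, 181 to 200 in vehicle BMDM and 448 to 470 in vehicle hepatocytes. With GW the sum in microglia was 192 to 208 TPM, below every vehicle library of those cells.

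**Figure D2:**
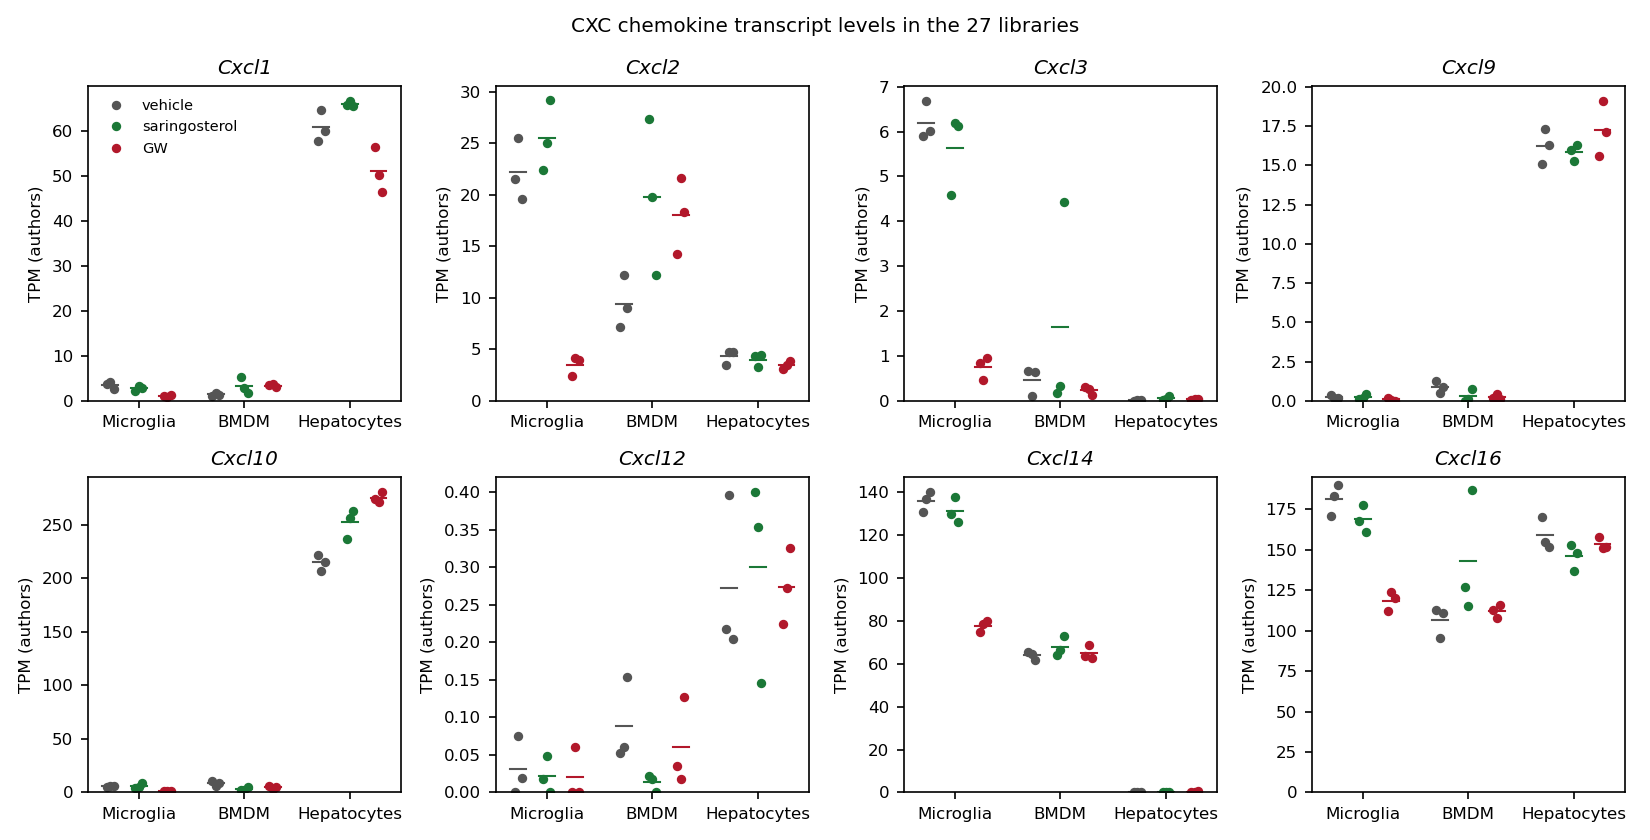
TPM of each member (y axis, linear from 0) in the 27 libraries, grouped by cell type (x axis); grey marks vehicle, green saringosterol, red GW, points are libraries and bars the group means. Cxcl10, Cxcl1 and Cxcl9 are high in hepatocytes, and the red points of microglia lie below the grey ones for Cxcl2, Cxcl3, Cxcl10, Cxcl14 and Cxcl16.

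The difference between cell types was tested in 1 edgeR quasi-likelihood fit of all 27 libraries, where called means an adjusted p (Benjamini-Hochberg over all genes tested) under 0.05. Against microglia, vehicle hepatocytes had 4 members higher and 4 lower, with 36.2% of the 18979 genes tested called higher, 37.3% lower and 73.5% in all. Against BMDM they had 3 higher and 3 lower of 8, with 37.5% of genes called higher, 37.7% lower and 75.2% in all. Microglia against BMDM had 5 members higher and 1 lower, with 24.6% of genes called higher and 46.5% in all. The shares of all genes are so high that the counts say little about the family. The sizes of single members differed more, and are given below on the log2 scale with their standard error (SE) and the edgeR adjusted p.

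Cxcl10, a ligand of Cxcr3, stood at 164 to 181 CPM (library sizes scaled by TMM) in vehicle hepatocytes, against 4.97 to 8.89 CPM in BMDM and 3.79 to 4.89 CPM in microglia. Hepatocytes exceeded microglia by 4.88 (SE 0.27, edgeR adjusted p = 1.42e-12) and BMDM by 4.21 (SE 0.26, edgeR adjusted p = 6.87e-12). Cxcl9, its partner at the same receptor, was 5.69 (SE 0.45) above microglia and 3.76 (SE 0.37) above BMDM. Cxcl1, a neutrophil attractant, was 3.79 (SE 0.19) above microglia and 4.997 (SE 0.22) above BMDM. Hepatocytes thus held more Cxcl1, and less of its relatives Cxcl2 (-2.68 against microglia, SE 0.25, and -1.54 against BMDM, SE 0.26) and Cxcl3. Cxcl3 was counted 0, 1 and 1 times in the vehicle hepatocyte libraries, at or under the limit of a count of 0, against 269 to 306 counts in microglia and 5 to 32 in BMDM. Cxcl14 likewise had 2 to 6 counts in vehicle hepatocytes and 3268 to 3319 in microglia. Cxcl16 varied least between the cell types: hepatocytes were 0.50 (SE 0.12) below microglia, and against BMDM the difference was 0.16 with a 95% interval of -0.09 to 0.41.

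Between the macrophage-like cells, Cxcl3 differed most, at 3.57 (SE 0.73, edgeR adjusted p = 0.000397) higher in microglia. Cxcl1 (1.204, SE 0.27), Cxcl2 (1.14, SE 0.23), Cxcl14 (0.98, SE 0.08) and Cxcl16 (0.66, SE 0.12) were also higher there. Of the 8 members Cxcl9 alone was called lower in microglia with all libraries (-1.93, SE 0.58, edgeR adjusted p = 0.00915), on 6 to 16 counts per vehicle library against 18 to 52 in BMDM, and this call was lost without BMDM vehicle replicate 1 (edgeR adjusted p = 0.061). Cxcl10 was called lower in microglia without BMDM vehicle replicate 2 (-0.85, edgeR adjusted p = 0.0354), and Cxcl12 without microglia vehicle replicate 2 (-3.22, 0.0328). Cxcl12 was sparse everywhere, with 0 to 8 counts in microglia, 0 to 16 in BMDM and 17 to 43 in hepatocytes.

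In microglia, GW lowered every member that could be tested. The 6 tested members were all called lower, against 15.2% of the 16065 genes called lower and 28.7% called in either direction. Their median change was -2.11, against -0.005 for all genes tested. Cxcl9 and Cxcl12 did not pass the filter on low counts and were not tested. Cxcl9 had 6 to 16 counts with vehicle and 1 to 8 with GW.

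Cxcl2 stood at 14.8, 17.7 and 13.7 CPM with vehicle, at 15.5, 17.1 and 20.2 CPM with saringosterol and at 1.77, 2.98 and 2.87 CPM with GW. The 3 GW libraries lay far below all 6 others, which overlapped. GW against vehicle gave -2.60 (SE 0.16, edgeR adjusted p = 2.43e-11). Cxcl3 stood at 6.86, 7.85 and 7.1 CPM with vehicle, 5.34, 7.15 and 7.15 CPM with saringosterol, and 1.05, 0.579 and 1.17 CPM with GW. It showed the same separation and had the largest change of the family in size, -2.95 (SE 0.20, edgeR adjusted p = 4.55e-13). Cxcl1, the least abundant of these neutrophil attractants in microglia by TPM, stood at 2.28, 2.62 and 1.74 CPM with vehicle, 1.43, 2.07 and 1.82 CPM with saringosterol, and 0.684, 0.522 and 0.798 CPM with GW. Its GW libraries did not overlap the others, and the change was -1.72 (SE 0.27, edgeR adjusted p = 9.41e-06).

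Cxcl10, the interferon-inducible member, stood at 3.79, 4.64 and 4.89 CPM with vehicle and at 0.741, 0.753 and 0.851 CPM with GW. With saringosterol it spread from 2.78 through 3.8 to 6.37 CPM, on both sides of the vehicle libraries. GW against vehicle gave -2.50 (SE 0.27, edgeR adjusted p = 4.5e-08). The constitutive and membrane-bound members changed less. Cxcl14 stood at 79.7, 84.1 and 86.3 CPM with vehicle, 79.5, 83.2 and 77.1 CPM with saringosterol and 48.6, 50.1 and 51.1 CPM with GW, a change of -0.74 (SE 0.05, edgeR adjusted p = 4.4e-13). Cxcl16 stood at 172, 186 and 194 CPM with vehicle, 169, 178 and 162 CPM with saringosterol and 120, 130 and 126 CPM with GW, a change of -0.55 (SE 0.05, edgeR adjusted p = 1.52e-10). In both genes the GW libraries lay below all others. All 6 calls held under each of the 11 alternatives run for them, which included DESeq2, another scaling and each library left out.

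Saringosterol at 10 µM moved none of these members past the threshold in microglia. Of 6 tested, 0 were called by edgeR, where 10.8% of genes were called; 1 had an unadjusted p under 0.05 and DESeq2 called 0. Cxcl16 was called lower when vehicle replicate 1 was left out (-0.16, edgeR adjusted p = 0.0241). The 95% intervals were -0.83 to 0.18 for Cxcl1, -0.08 to 0.46 for Cxcl2, -0.48 to 0.17 for Cxcl3, -0.50 to 0.41 for Cxcl10, -0.16 to 0.04 for Cxcl14 and -0.21 to -0.02 for Cxcl16. These intervals do not reach the GW changes of any of the 6 genes. Compared directly, saringosterol libraries were higher than GW libraries in all 6 genes, with 12.5% of genes called higher and 25.5% called. The difference was 2.79 (SE 0.16) for Cxcl2, 2.79 (SE 0.20) for Cxcl3, 2.45 (SE 0.27) for Cxcl10 and 1.398 (SE 0.28) for Cxcl1. It was 0.68 (SE 0.05) for Cxcl14 and 0.44 (SE 0.05) for Cxcl16. The doses differed by compound (10 and 1 µM), and both comparisons with vehicle share the same vehicle libraries. In bulk RNA, fewer cells that make a transcript and less of it per cell cannot be told apart. Of the 8 macrophage markers GW called 5 lower and 3 higher in microglia (median -0.21), where 28.7% of all genes were called. Their sum was 38200 to 39000 CPM with GW against 34300 to 36000 CPM with vehicle. Astrocyte markers summed to 29 to 29.6 against 16.5 to 19 CPM, where 1 of 6 tested was called higher and 0 lower (median 0.09). Oligodendrocyte markers summed to 78 to 82.5 against 72.2 to 74.2 CPM, where 3 of 5 tested were called higher and 0 lower (median 0.155). Kupffer cell markers summed to 195 to 210 against 287 to 299 CPM. Of 3 tested, 2 were called higher and 1 lower (median 1.57), so the sum ran against most of them. The part of these markers in the change was not tested.

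**Figure D3:**
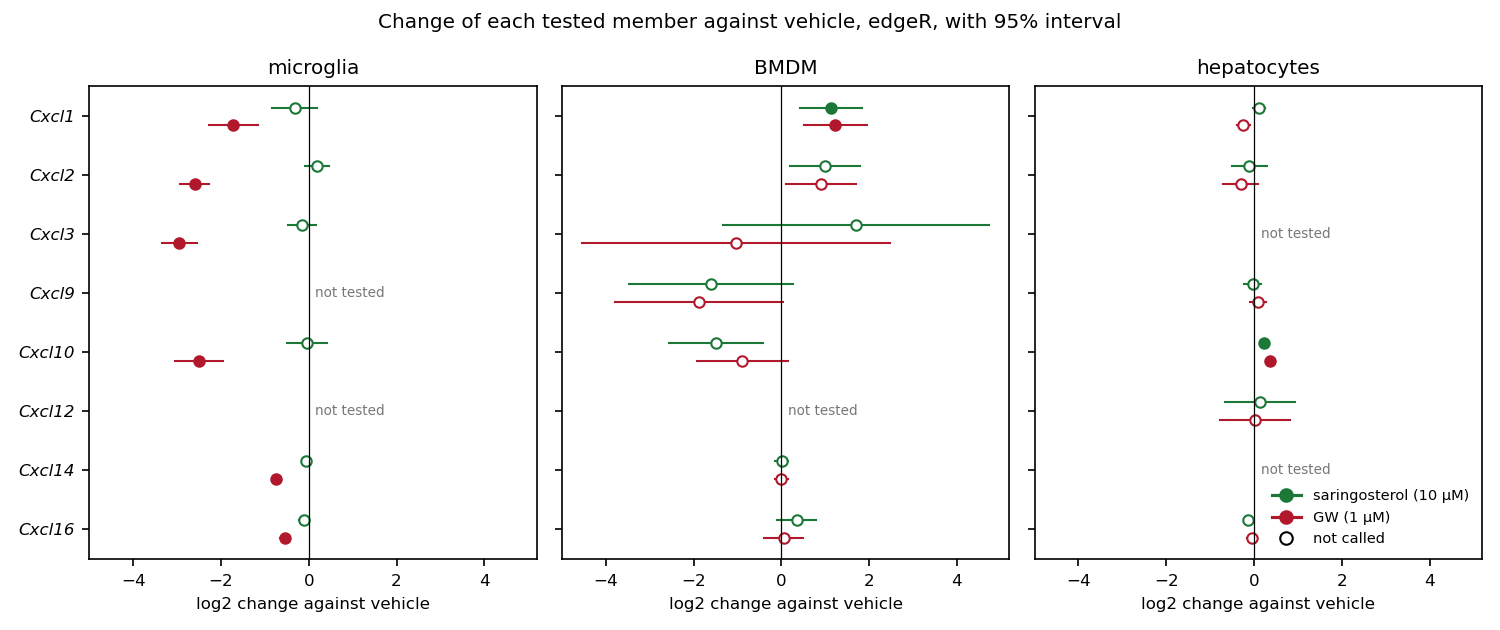
Log2 change against vehicle (x axis) of each tested member in microglia, BMDM and hepatocytes; green is saringosterol (10 µM), red is GW (1 µM), lines are 95% intervals, filled points were called by edgeR and open points were not. All 6 red points of microglia are filled and lie between -2.95 and -0.55, and the green ones there are open and near 0.

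In BMDM edgeR called Cxcl1 higher with both compounds and no tested member lower, but which members were called depended on the fit. Vehicle libraries held 0.767, 1.23 and 0.868 CPM of Cxcl1, GW libraries 2.31, 2.43 and 1.97 CPM and saringosterol libraries 3.41, 1.76 and 1.17 CPM. The GW libraries lay above all vehicle libraries, and 1 saringosterol library (replicate 3) lay within the vehicle range. The change was 1.23 with GW (SE 0.34, edgeR adjusted p = 0.0246) and 1.13 with saringosterol (SE 0.34, edgeR adjusted p = 0.0385). Cxcl1 was the 1 member of 7 tested called with either compound, where 10.4% of genes were called with GW and 10.7% with saringosterol. The median over the 7 was -0.003 with GW and 0.35 with saringosterol, against -0.008 and -0.007 over all genes. Each Cxcl1 call was lost in 5 of the 6 fits that left out 1 library, with edgeR adjusted p up to 0.13 for GW and 0.22 for saringosterol.

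Other fits of the same BMDM libraries called more members. With saringosterol, DESeq2 called Cxcl2 higher (adjusted p = 0.0281) and Cxcl10 lower (0.0199) beside Cxcl1, where it called 15.8% of genes. The edgeR fit of all 27 libraries called the same 3 (adjusted p = 0.00543 for Cxcl2 and 0.0051 for Cxcl10), where 13% of genes were called. With GW, that fit called Cxcl2 higher (adjusted p = 0.0104) and Cxcl9 lower (0.0381) beside Cxcl1, where 12.9% of genes were called. Without the filter on low counts, edgeR called Cxcl9 lower with saringosterol (adjusted p = 0.025, 6.38% of genes called) and with GW (0.00568, 6.23%). The calls of Cxcl2, Cxcl9 and Cxcl10 in BMDM thus turned on the fit, and the fitted changes kept their direction.

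Cxcl2 stood at 5.24, 8.89 and 6.63 CPM with vehicle, 10.5, 15.2 and 13.1 CPM with GW and 19.2, 13.7 and 8.44 CPM with saringosterol. Its GW libraries were all above the vehicle libraries and its saringosterol libraries overlapped them through replicate 3. Neither change passed the threshold in the fit of BMDM alone (0.91, SE 0.34, edgeR adjusted p = 0.153 with GW; 0.99, SE 0.34, edgeR adjusted p = 0.12 with saringosterol). Cxcl10 stood at 8.89, 4.97 and 6.86 CPM with vehicle, 4.84, 2.26 and 4.14 CPM with GW and 1.67, 1.54 and 4.08 CPM with saringosterol. Both treated groups were below every vehicle library, and the changes of -0.89 (SE 0.44, edgeR adjusted p = 0.273) and -1.50 (SE 0.46, edgeR adjusted p = 0.0866) were not called in that fit. Cxcl9 stood at 1.33, 0.526 and 0.98 CPM with vehicle, 0.21, 0.422 and 0.129 CPM with GW and 0, 0.147 and 0.754 CPM with saringosterol, again with replicate 3 the only saringosterol library in the vehicle range. Its changes of -1.88 (SE 0.86, edgeR adjusted p = 0.209) with GW and -1.60 (SE 0.84, edgeR adjusted p = 0.27) with saringosterol were not called there. Cxcl3 stood at 0.818, 0.146 and 0.812 CPM with vehicle, 0.394, 0.323 and 0.155 CPM with GW and 0.217, 0.391 and 5.18 CPM with saringosterol. All groups overlapped, and the lone high library was again saringosterol replicate 3.

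Neither Cxcl14 nor Cxcl16 was called in BMDM. Cxcl14 lay between 39.8 and 44.5 CPM in all 9 libraries, and its 95% interval was -0.15 to 0.14 with GW and -0.14 to 0.15 with saringosterol. Cxcl16 stood at 122, 102 and 119 CPM with vehicle, 123, 111 and 122 CPM with GW and 131, 117 and 189 CPM with saringosterol, where replicate 3 was the only library above 131 CPM. Its interval with saringosterol was wider, at -0.09 to 0.79. The direct comparison of saringosterol with GW called 0 of 7 members by edgeR, where 9.33% of genes were called; 0 had an unadjusted p under 0.05 and DESeq2 called 0. The fit of all 27 libraries called Cxcl3 higher with saringosterol (2.75, edgeR adjusted p = 0.0399), where 11.1% of genes were called. In the fit of BMDM alone this Cxcl3 difference was 2.73 (SE 1.35, edgeR adjusted p = 0.309). Without saringosterol replicate 3 it was 0.08 (edgeR adjusted p = 0.97), so its size rested on that library. The intervals of the difference in the fit of BMDM alone were wide: -0.76 to 0.57 for Cxcl1, -0.69 to 0.86 for Cxcl2 and -1.70 to 0.48 for Cxcl10. Macrophage markers summed to 20700 to 22200 CPM with saringosterol, below the 26700 to 28400 CPM with vehicle and the 26400 to 28500 CPM with GW. Of the 8, 3 were called lower with saringosterol and 1 with GW, where 10.7% and 10.4% of all genes were called. Kupffer cell markers summed to 115 to 120 CPM with vehicle, 300 to 417 CPM with saringosterol and 439 to 463 CPM with GW. Neutrophil markers summed to 86.8 to 93.5, 68.1 to 74.9 and 65.1 to 67.7 CPM in the same order. With GW 4 of 6 tested were called lower, where 10.4% of all genes were called. Endothelial markers summed to 84.4 to 94.6, 99 to 120 and 144 to 146 CPM, and astrocyte markers to 18.1 to 23.5, 4.81 to 8.61 and 27.9 to 29.9 CPM. The astrocyte sum fell with saringosterol although the median change of the 4 tested was 0.49, with 1 called lower and 0 higher. The part of these shifts in the values of the members was not tested.

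Replicate 3 of saringosterol-treated BMDM departed from the other replicates in both directions. Relative to the mean of replicates 1 and 2, it held 17 times as much Cxcl3 (5.18 against 0.217 and 0.391 CPM), 10.3 times as much Cxcl9, 2.54 times as much Cxcl10 and 1.53 times as much Cxcl16. It held 0.452 times as much Cxcl1 and 0.512 times as much Cxcl2. Cxcl14 differed by 1.11 times. The library was therefore closer to vehicle for Cxcl1, Cxcl2, Cxcl9 and Cxcl10 and beyond it for Cxcl3 and Cxcl16.

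Without that library, saringosterol against vehicle in BMDM called 2 members higher and 2 lower of 8, where 10.5% of genes were called, 4.45% higher and 6.02% lower. Cxcl1 rose by 1.42 (edgeR adjusted p = 0.0024) and Cxcl2 by 1.25 (edgeR adjusted p = 0.0028). Cxcl9 fell by 3.52 (edgeR adjusted p = 0.0033), on 0 and 6 counts in the remaining saringosterol libraries, so its size is poorly bounded. Cxcl10 fell by 2.11 (edgeR adjusted p = 0.00013). Cxcl3 turned from 1.70 (SE 1.25) to -0.94, called in neither fit, with edgeR adjusted p of 0.465 and 0.42. Cxcl16 moved from 0.35 to 0.11, called in neither fit. Saringosterol against GW then called Cxcl10 lower, at -1.23 (edgeR adjusted p = 0.017), and no other member of 8, where 8.86% of genes were called.

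**Figure D4:**
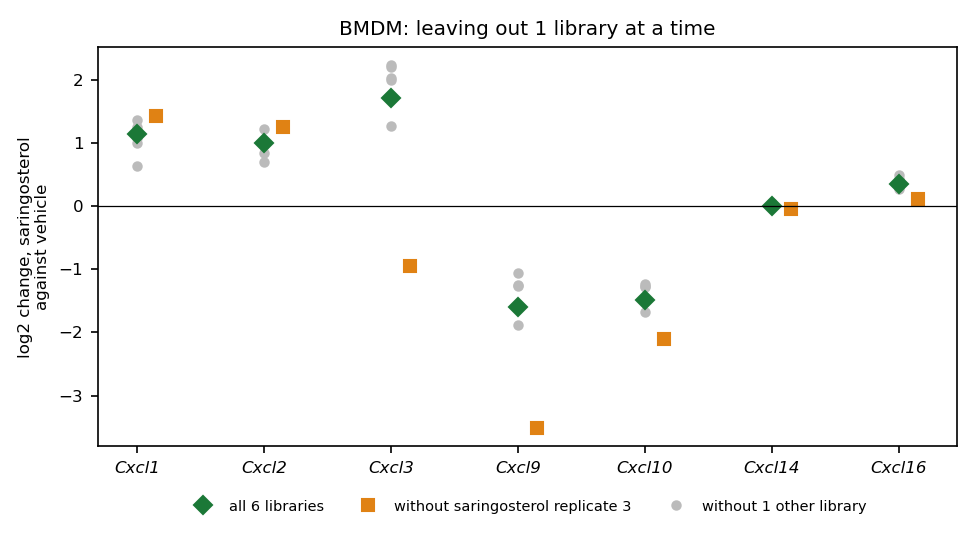
Log2 change of 7 members with saringosterol against vehicle in BMDM (y axis); green diamonds use all 6 libraries of the pair of groups, orange squares leave out saringosterol replicate 3, and grey points leave out 1 other library. The orange square of Cxcl3 is at -0.94 and its green diamond at 1.70, and those of Cxcl14 nearly coincide.

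In hepatocytes, Cxcl10 rose slightly with both compounds. It stood at 181, 164 and 172 CPM with vehicle, 195, 205 and 207 CPM with saringosterol and 221, 219 and 226 CPM with GW. All treated libraries were above all vehicle libraries. The change was 0.23 with saringosterol (SE 0.05, edgeR adjusted p = 0.00722) and 0.36 with GW (SE 0.05, edgeR adjusted p = 8.97e-06). Cxcl10 was the 1 member of 6 called with each compound, where 1.91% of genes were called with saringosterol and 1.11% with GW. The median over the 6 was 0.04 and -0.01, against 0.00 for all genes. The saringosterol call was lost without saringosterol replicate 2 or vehicle replicate 3, and both calls were lost in the fit of all 27 libraries, where a gene has the same dispersion in every cell type (edgeR adjusted p = 0.78 and 0.94).

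Cxcl1 stood at 39.2, 42.7 and 40.1 CPM with vehicle, 45, 44.4 and 43 CPM with saringosterol and 37.9, 33.8 and 31.2 CPM with GW. The groups did not overlap, with saringosterol highest and GW lowest. Only the difference between the compounds was called (0.36, SE 0.07, edgeR adjusted p = 0.00223), as 1 of 6 members where 1.96% of genes were called. It was not called in the fit of all 27 libraries (edgeR adjusted p = 0.48). Against vehicle, GW gave -0.25 (SE 0.07, edgeR adjusted p = 0.103) and saringosterol 0.12 (SE 0.07, edgeR adjusted p = 0.41). The GW change was called without GW replicate 1 (-0.32, edgeR adjusted p = 0.0343). Cxcl9 stood at 16.4, 18.4 and 17.5 CPM with vehicle, 17.6, 16.4 and 17.2 CPM with saringosterol and 16.8, 20.7 and 18.5 CPM with GW. Cxcl16 stood at 186, 165 and 164 CPM with vehicle, 169, 147 and 156 CPM with saringosterol and 171, 163 and 165 CPM with GW. For both genes the groups overlapped, and the 95% intervals against vehicle were -0.22 to 0.15 (saringosterol) and -0.09 to 0.28 (GW) for Cxcl9, and -0.24 to -0.01 and -0.16 to 0.07 for Cxcl16. The neutrophil attractant Cxcl2 lay between 2.29 and 3.52 CPM in the 9 libraries. Cxcl12, the most sparse member tested there, lay between 0.417 and 1.19 CPM. Kupffer cell markers summed to 1.82 to 3.47 CPM with vehicle, 1.91 to 1.95 CPM with saringosterol and 3 to 4.55 CPM with GW, and cholangiocyte markers to 608 to 641, 599 to 691 and 493 to 539 CPM; their part was not tested.

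The responses were then compared between cell types as interaction terms of the 27-library fit, for members tested in both cell types. Of 30 such differences 12 were called. The GW response of microglia was lower than that of BMDM in 4 of 6 members, where 5.28% of genes were called lower and 9.71% in all: Cxcl2 by -3.51 (SE 0.35, edgeR adjusted p = 5.68e-07), Cxcl1 by -2.97 (SE 0.39, 7.45e-06), Cxcl14 by -0.74 (SE 0.12, 3.27e-05) and Cxcl16 by -0.61 (SE 0.17, 0.0246). For Cxcl1 and Cxcl2 the fitted GW changes of the 2 cell types pointed in opposite directions. Cxcl10 differed by -1.61 (SE 0.56) and Cxcl3 by -1.92 (SE 1.23), both not called (edgeR adjusted p = 0.0816 and 0.394). Against hepatocytes, the GW response of microglia was lower in 3 of 4 members, where 3.64% of genes were called lower and 8.69% in all, namely Cxcl10 (-2.83, SE 0.49), Cxcl2 (-2.27, SE 0.39) and Cxcl1 (-1.45, SE 0.33). BMDM differed from hepatocytes in their GW response in 1 of 5 members, Cxcl1 (1.51, SE 0.31, edgeR adjusted p = 0.00291), where 4.74% of genes were called.

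For saringosterol, the responses of microglia and hepatocytes differed in 0 of 4 members by edgeR, where 1.18% of genes were called; 0 had an unadjusted p under 0.05 and DESeq2 called 0. Microglia and BMDM differed in 1 of 6, Cxcl1 (-1.45, SE 0.36, edgeR adjusted p = 0.0293), where 2.01% of genes were called. Without BMDM saringosterol replicate 3, Cxcl1 (-1.74, edgeR adjusted p = 0.00052), Cxcl2 (-1.06, 0.024), Cxcl10 (2.06, 0.021) and Cxcl9 (3.38, 0.041), which was not tested in microglia alone, were called in this contrast, where 1.68% of genes were called. With all libraries, DESeq2 called Cxcl10 (1.41, adjusted p = 0.0357) and Cxcl16 (-0.50, 0.0214) in it. BMDM and hepatocytes differed in 3 of 5, where 10.1% of genes were called, 6.98% higher: Cxcl10 (-1.67, SE 0.39, edgeR adjusted p = 0.00996), Cxcl1 (1.04, SE 0.31, 0.0318) and Cxcl2 (1.14, SE 0.37, 0.0497). The call of Cxcl2 was lost in 12 of 17 alternatives, with edgeR adjusted p up to 0.13, and that of Cxcl1 in 7. Without BMDM saringosterol replicate 3, these became -2.30 for Cxcl10 (edgeR adjusted p = 0.0009), 1.34 for Cxcl1 (0.00093) and 1.39 for Cxcl2 (0.0023), and Cxcl9 (-3.43, 0.00092) was called beside them, where 8.86% of genes were called.

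Genes around the family were followed in lists chosen for their role. Among the 5 other CXC chemokines tested in microglia, GW called 3 lower and none higher, where 28.7% of all genes were called and 15.2% lower, namely the B cell attractant Cxcl13 (-2.74, SE 0.48), the neutrophil attractant Cxcl5 (-2.16, SE 0.55) and Ppbp (-1.36, SE 0.38). The median over the 5 was -2.03. Pf4, a platelet-type CXC chemokine, was not called (-0.04, SE 0.04). In hepatocytes Cxcl13 was called higher with saringosterol (0.64, SE 0.14, edgeR adjusted p = 0.015), 1 of 3 tested, where 1.91% of all genes were called. Of the receptors, 3 of 8 were tested in microglia and 4 in BMDM. GW called 1 of the 3 in microglia, where 28.7% of all genes were called. This was Cxcr5 (-2.12, SE 0.79, edgeR adjusted p = 0.042), at 0.295 ± 0.061 CPM with vehicle. With GW it stood at 0.066 ± 0.044 CPM, near the limit of a count of 0. In BMDM GW called 1 of the 4, where 10.4% of all genes were called. This was Cxcr4, the receptor of Cxcl12, which was higher (0.38, SE 0.11, edgeR adjusted p = 0.031). No receptor reached the filter in hepatocytes.

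A further list held genes of chemokine processing and surface release. Of the 7 tested in microglia, GW called 4 lower and 1 higher, against the 28.7% of all genes called there. Mmp8, which trims CXC ligands, fell from 215 ± 4.95 to 66.8 ± 3.07 CPM (-1.69, SE 0.04) and Mmp9 from 649 ± 17 to 219 ± 0.637 CPM (-1.57, SE 0.04). Adam10, a sheddase of Cxcl16, was the 1 higher (0.13, SE 0.04). Saringosterol called 2 of the 7 lower there (10.8% of all genes called), Mmp9 (-0.29, SE 0.04) and Mmp8 (-0.14, SE 0.04). In BMDM, where GW called 10.4% of all genes, it called 3 of 7 lower, among them Mmp8 (-0.96, SE 0.23) and Mmp12 (-0.40, SE 0.06).

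Of 14 NF-kappaB genes, GW called 10 lower and 1 higher in microglia, where 15.2% of all genes were called lower and 28.7% in all, with a median of -0.32 against -0.005 for all genes. The lower ones included the inhibitor Nfkbie (-0.84, SE 0.07) and the co-regulator Bcl3 (-0.83, SE 0.11), and Tlr4, the receptor of lipopolysaccharide, was not called (-0.01, SE 0.04). The 1 higher was the feedback inhibitor Tnfaip3 (0.17, SE 0.05). Saringosterol called 2 lower and 1 higher in microglia (10.8% of all genes called), with Nfkbiz at -0.75 (SE 0.11) and Tnfaip3 at 0.47 (SE 0.05). In BMDM, Tnfaip3 was higher with both compounds (0.64 with saringosterol and 0.72 with GW, each SE 0.07). Beside it, saringosterol called 1 more gene higher (Tlr4, 0.57, SE 0.11) and 1 lower, and GW 1 lower (Myd88, -0.23, SE 0.07), with 10.7% and 10.4% of all genes called.

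Of 14 interferon genes tested, GW called 8 lower and 4 higher in microglia, where 28.7% of all genes were called, and saringosterol 7 lower and none higher, where 10.8% were. Among the 4 higher with GW was the receptor chain Ifngr1 (0.79, SE 0.04). Irf7, a transcription factor induced by interferon, stood at 459 ± 63.3 CPM with vehicle, 214 ± 7.59 CPM with saringosterol and 141 ± 12.5 CPM with GW. Stat2, which carries the type I interferon signal, changed by -0.86 (SE 0.06) with saringosterol and -0.74 (SE 0.06) with GW. Saringosterol thus lowered these 2 genes in microglia, while Cxcl10 changed by -0.04 with an interval of -0.50 to 0.41. In BMDM, GW called 4 interferon genes higher and none lower (10.4% of all genes called), led by the receptor chain Ifngr1 (0.70, SE 0.07). Saringosterol called 1 higher there (Irf8, 0.22, SE 0.06), 1 of 14 where 10.7% of all genes were called. Neither list had a called gene in hepatocytes with either compound, where saringosterol called 1.91% of all genes and GW 1.11%. By unadjusted p under 0.05 the counts were 3 NF-kappaB genes and 1 interferon gene with saringosterol, and 0 and 1 with GW.

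Genes that control the decay of AU-rich mRNA, a feature of many chemokine transcripts, had 1 of 8 higher and 1 lower in GW-treated microglia, a share near the 28.7% of all genes called there. They were Zfp36, which binds and destabilises such mRNA, at 0.33 (SE 0.05) and its relative Zfp36l2 at -0.58 (SE 0.04). Saringosterol called 1 of the 8 higher and 2 lower in microglia, where 10.8% of all genes were called. In BMDM each compound called 2 of 8 lower and 0 higher, where saringosterol called 10.7% of all genes and GW 10.4%. Zfp36l1 was among those lower with saringosterol (-0.65, SE 0.08). In hepatocytes neither compound called any of the 8, where 1.91% and 1.11% of all genes were called. The LXR targets were called higher by both compounds in microglia (6 of 6 each), where saringosterol called 10.8% of all genes and GW 28.7%. In BMDM saringosterol called 6 of 6 higher and GW 5 of 6, where 10.7% and 10.4% of all genes were called. In hepatocytes GW called 4 of 6 higher, where 1.11% of all genes were called. Saringosterol called 0 of 6 in hepatocytes with edgeR, where 1.91% of all genes were called, and 3 had an unadjusted p under 0.05. In microglia the cholesterol exporter Abca1 rose by 1.71 (SE 0.04) with saringosterol and 2.16 (SE 0.04) with GW.

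**Figure D5:**
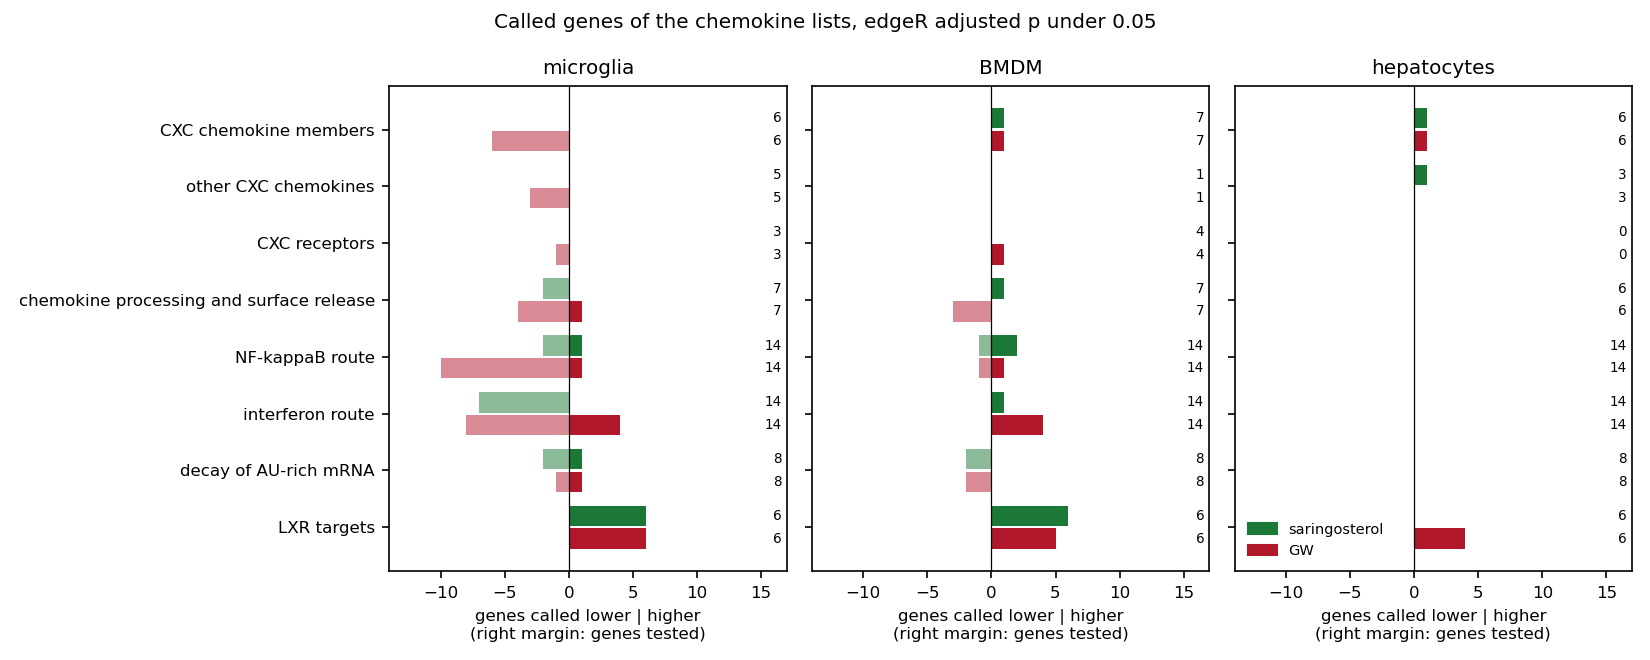
Number of genes called higher (solid, right of 0) and lower (pale, left of 0) by edgeR against vehicle in each list, with the number tested in the right margin; green is saringosterol, red is GW. In microglia GW calls all 6 tested members and 10 of the 14 NF-kappaB genes lower.

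The genes whose pattern over the 27 libraries was most like each member, after each cell type's mean was removed, are given by Pearson r of log2 CPM as a description. Cxcl1 was nearest to Cxcl2 (0.871), Otud7b (0.831) and Hspa1b (0.824). Cxcl2 was nearest to Ppp1r15a (0.913), Gadd45b (0.899) and Ccrl2 (0.896), and Cxcl3 to Ccl5 (0.889), H2-M2 (0.889) and Bcl3 (0.884). Cxcl10 was nearest to Rnd3 (0.868), Icam1 (0.866) and Arrdc4 (0.864), and Cxcl16 to Bcl3 (0.874), Cd274 (0.872) and Nosip (0.872). Bcl3 was thus among the nearest 3 of both Cxcl3 and Cxcl16. Values were lower for Cxcl9, with Gm10212 (0.818), BE692007 (0.804) and Pilra (0.802), and for Cxcl14, with Gm15931 (0.788), Dennd2a (0.757) and 4930455G09Rik (0.73). Cxcl12 was nearest to Them4 (0.707), Nat2 (0.677) and Serpinb9e (0.675), on few counts. The points share treatments and libraries.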

How the data were processed

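Polyadenylated RNA of 27 libraries was sequenced from oligo-dT primed, amplified cDNA (SMARTer Ultra Low), per the labels' protocols. Alignment used STAR 2.5.1a on GRCm38 and counting used featureCounts 1.4.6-p5, per the submitters' processing notes; for annotation release and strand setting, nothing was given in the sources used here. The authors deposited raw counts for every gene beside CPM (counts scaled to the library total), FPKM and TPM values. FPKM values were not used. Of 55774 lines, 168 identifiers stood on several identical lines and were used once, which left 55487. No libraries were identical, and chi-square over degrees of freedom was 3.61 to 33.5 in the 27 replicate pairs, above sampling noise.

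Counts were fitted with edgeR 4.0.16 (R 4.3.3; filterByExpr, TMM, robust quasi-likelihood F test, Benjamini-Hochberg over all genes, called under 0.05) in the 9 libraries of each cell type: 16065 genes in microglia, 15416 in BMDM and 16098 in hepatocytes. Vehicle levels and responses were compared between cell types in 1 fit of 27 libraries (18979 genes). The fit was tested on simulated data. A prior count of 2 entered log CPM for likeness. Alternatives were DESeq2 1.42.0, its size factors, no filter, 1 fit of all libraries or of the 18 of 2 cell types, a replicate block, and each library left out. The members and the gene lists were chosen with earlier results of these data known. All 8 members are described. Of the called list genes only some are named, and they are not in every comparison the 2 with the largest change. For likeness the 3 nearest genes are named. Further list genes (Ppbp, Pf4, Adam10, Tlr4, Tnfaip3, Stat2 and Abca1) were named after their values were seen. The motif letters were shortened after longer forms of the kappaB and ISRE motifs had been searched, under which Cxcl9 held no match.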

Additional observations from a re-analysis of the deposited data

Results flagged for a closer look

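The differences in response between cell types that passed the test are listed here with their values (log2, first cell type minus second, edgeR interaction, 27 libraries). With saringosterol they were -1.45 for Cxcl1 in microglia against BMDM (adjusted p = 0.0293) and, in BMDM against hepatocytes, 1.04 for Cxcl1 (0.0318), 1.14 for Cxcl2 (0.0497) and -1.67 for Cxcl10 (0.00996). With GW they were, in microglia against BMDM, -2.97 for Cxcl1, -3.51 for Cxcl2, -0.74 for Cxcl14 and -0.61 for Cxcl16. In microglia against hepatocytes they were -1.45 for Cxcl1, -2.27 for Cxcl2 and -2.83 for Cxcl10 with GW. Cxcl1 in BMDM against hepatocytes was 1.51 with GW.

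The GW difference of Cxcl16 lost its call in 7 of 17 alternatives, with values of -0.66 to -0.535 and adjusted p up to 0.074. The saringosterol differences of Cxcl1 lost theirs in 8 of 17 (microglia against BMDM) and 7 of 17 (BMDM against hepatocytes) alternatives. Cxcl2 with saringosterol in BMDM against hepatocytes lost its call in 12 of 17, among them the fit of 18 libraries, the fit without the filter and 9 fits that left out 1 library, with values of 0.837 to 1.395 and adjusted p up to 0.13. Cxcl10 with saringosterol in BMDM against hepatocytes kept its call in all 17, between -2.302 and -1.402. Medium differed along with cell type where hepatocytes are compared.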

How the results depend on the processing

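Of 49 member values called, 39 kept their call in every alternative run, and of 62 not called, 21 were called in at least 1 alternative. Those called by DESeq2 but not by edgeR and not given above were differences in response: Cxcl16 with saringosterol in BMDM against hepatocytes (0.548), and with GW Cxcl10 in microglia against BMDM (-1.645), Cxcl16 in microglia against hepatocytes (-0.489) and Cxcl2 in BMDM against hepatocytes (1.242). Counts of called genes moved by over 1.5 times as follows. In the fit of all 27 libraries, saringosterol against vehicle called 690 genes in microglia (1743 in the cell type's own fit), 2471 in BMDM (1643) and 57 in hepatocytes (307); GW called 2442 in BMDM (1606) and 88 in hepatocytes (178), and the compounds differed in 146 genes in hepatocytes (316). Without the filter, saringosterol called 491 genes in hepatocytes and its response differed in 700 between microglia and BMDM (382). DESeq2 called 563 for saringosterol in hepatocytes. For the difference in saringosterol response it called 1075 (microglia, BMDM), 555 (microglia, hepatocytes; 224) and 2948 (BMDM, hepatocytes; 1918), and for GW in BMDM against hepatocytes 1518 (899). The fit of 18 libraries called 615 for saringosterol in microglia against hepatocytes.

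The labels do not say whether replicate numbers pair the samples. Correlations of same-numbered deviations were -0.148 to 0.111, which cannot show that pairing is absent. With the replicate block, hepatocytes gave 782 genes for saringosterol (307 without it), 286 for GW (178) and 544 for the compounds against each other (316). The block also gave calls for Cxcl10 in BMDM (saringosterol adjusted p = 0.0034, GW 0.042) and Cxcl1 with GW in hepatocytes (0.043).

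With each library left out in turn, counts ranged in BMDM from 846 to 1754 (saringosterol), 896 to 1696 (GW) and 887 to 1475 (between compounds), and in hepatocytes from 86 to 803 (saringosterol) and 188 to 294 (between compounds). Differences in saringosterol response ranged from 161 to 681 (microglia, BMDM), 131 to 269 (microglia, hepatocytes) and 1220 to 2381 (BMDM, hepatocytes). Some values turned sign. With saringosterol in BMDM, Cxcl3 (1.703 with all libraries, -0.943 without saringosterol replicate 3) ranged from -0.943 to 2.227 and Cxcl14 from -0.049 to 0.045; with GW, Cxcl14 ranged from -0.024 to 0.036 and Cxcl16 from -0.022 to 0.112. Between compounds in BMDM, Cxcl1 ranged from -0.612 to 0.189, Cxcl2 from -0.227 to 0.333, Cxcl9 from -1.641 to 0.854 and Cxcl14 from -0.049 to 0.039. In hepatocytes with saringosterol, Cxcl2 ranged from -0.242 to 0.025, Cxcl9 from -0.077 to 0.011 and Cxcl12 from -0.146 to 0.485; with GW, Cxcl12 ranged from -0.148 to 0.37 and Cxcl16 from -0.079 to 0.018; between compounds Cxcl12 ranged from -0.165 to 0.466. Cxcl10 with saringosterol in microglia ranged from -0.433 to 0.195. Differences in saringosterol response ranged from -2.375 to 0.781 for Cxcl3 (microglia, BMDM; -1.876 with all libraries, 0.781 without BMDM saringosterol replicate 3), and from -0.62 to 0.007 for Cxcl10 and -0.019 to 0.094 for Cxcl16 (microglia, hepatocytes). Cxcl14 with GW in BMDM (-0.003) became 0.002 with DESeq2's size factors and with DESeq2, 0.006 without the filter and 0.013 in the fit of 27 libraries. None of these values was called with all libraries. Apart from the fits with other libraries or genes, the cause was not tested. Under 20 counts per library, as for Cxcl9, Cxcl12 and Cxcl3 in several groups, depth limits what could be detected.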
